A study of Mus musculus with 26 samples.

Results

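The mitochondrial ribosomal protein genes were taken as the rows of the count table whose symbol starts with Mrpl or Mrps and a digit. This gave 76 genes of the 23762 symbols in the table. By the current family names, 49 of them encode proteins of the large subunit of the mitochondrial ribosome, 29 with a bacterial homolog and 20 specific to mitochondria. Another 26 encode proteins of the small subunit, 16 with a bacterial homolog and 10 specific to mitochondria. The remaining gene, Mrps36, carries a ribosomal name, but its product is now assigned to the α-ketoglutarate dehydrogenase complex. Mrps18a and Mrps30 were counted with the large subunit, where their products sit. The genes lie on 17 chromosomes, and 10 of them, the most on any chromosome, lie on chromosome 11.

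The study is on late B cell development in the mouse and on CXCR4, a receptor to which the chemokine CXCL12 binds. RNA of flow-sorted B cells was sequenced in 18 libraries of 9 groups, 2 libraries in each. Cultured pre-B cells not labelled as mutant were kept without interleukin 7 (IL-7) with CXCL12, without IL-7, with IL-7, in the absence of IL-7 under CXCL12 plus ERK inhibitor II, or with IL-7 and CXCL12. IL-7 is the growth factor of B cell progenitors, and the inhibitor acts on the ERK kinases. Cultured small pre-B cells labelled CXCR4-/- were kept without IL-7, with or without CXCL12. Small pre-B cells with no medium in their labels, called sorted cells here, were labelled CXCR4 knockout or wild type. The title and the table column of replicate 2 without IL-7 say small pre-B, as does the column, but not the title, of replicate 2 without IL-7 with CXCL12. Strain, age, the allele and the cells in which Cxcr4 was deleted, culture times and doses are not in the labels used here. Nor is it stated whether replicates were separate animals or cultures, so the tests measure the spread between libraries, which may be technical.

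Mitochondria translate a small set of membrane proteins of the respiratory chain on ribosomes of their own. The ribosomal RNAs are encoded in mitochondrial DNA, whereas the ribosomal proteins are encoded in the nucleus, made in the cytosol and imported. The large subunit holds the peptidyl transferase centre and the small subunit decodes the messenger RNA. Cells that grow and divide, as pre-B cells do under IL-7, make new mitochondrial ribosomes along with cytosolic ones.

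Promoters were searched because the genes mostly moved together. RefSeq promoters of GRCm38.p6, from 250 bases before to 50 after the start, were at hand for 67 of the 76 genes, as 73 promoters. They were searched on both strands for an E-box bound by MYC and MAX (CACGTG), a site of nuclear respiratory factor 1 (GCGCA and GCGC with any base between them), an ETS-family site (CCGGAAG) and a YY1 site (AAGATGG). The ETS motif was in 24 of the 73 promoters (32.9%) and in 15.6% of the promoters of the other genes tested. For the nuclear respiratory factor 1 motif the shares were 16.4% and 8.9%, for the YY1 motif 17.8% and 6.63%, and for the E-box 9.59% and 9.45%. Over the 32851 promoters of the table the shares were 8.86%, 4.6%, 6.34% and 7.15% in the same order. All shares are by promoter and not by gene. The 7 member promoters with an E-box belonged to 5 of the 67 genes, with Mrpl2 counted more than once. A match is a description of letters in the window and not a shown binding site. Shown here are the 150 bases before the start, all on the + strand, of 4 genes whose transcripts fell when CXCL12 replaced IL-7 and of Mrpl36, which holds in this window the 2 motifs that the other windows lack. They lie at chr13:99344636-99344785 (Mrps27), chr11:120484487-120484636 (Mrpl12), chr9:105053118-105053267 (Mrpl3), chr11:97315566-97315715 (Mrpl45) and chr13:73330859-73331008 (Mrpl36). Capitals mark the ETS motif in Mrps27 and Mrpl3, the nuclear respiratory factor 1 motif in Mrpl12 and, at 2 places, in Mrpl45, and an E-box followed by a YY1 motif in Mrpl36.
Mrps27: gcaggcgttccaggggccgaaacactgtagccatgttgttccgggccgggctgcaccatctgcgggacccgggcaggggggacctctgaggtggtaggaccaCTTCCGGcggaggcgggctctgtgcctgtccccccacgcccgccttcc
Mrpl12: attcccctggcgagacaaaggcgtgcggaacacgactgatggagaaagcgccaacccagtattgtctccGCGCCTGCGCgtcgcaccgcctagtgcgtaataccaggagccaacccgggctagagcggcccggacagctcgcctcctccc
Mrpl3: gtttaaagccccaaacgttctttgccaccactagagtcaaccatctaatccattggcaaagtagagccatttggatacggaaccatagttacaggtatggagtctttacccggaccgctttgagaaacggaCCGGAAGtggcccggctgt
Mrpl45: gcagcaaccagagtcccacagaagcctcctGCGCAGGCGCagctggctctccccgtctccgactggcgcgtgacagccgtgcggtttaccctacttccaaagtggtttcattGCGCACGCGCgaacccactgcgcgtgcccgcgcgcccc
Mrpl36: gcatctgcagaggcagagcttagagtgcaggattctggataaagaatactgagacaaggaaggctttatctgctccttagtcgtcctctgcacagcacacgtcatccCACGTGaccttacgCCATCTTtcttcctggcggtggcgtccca

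Levels below are CPM, which are counts scaled to a common library size by TMM, with the values of replicates 1 and 2 in that order. Calls rest on edgeR's quasi-likelihood test over all 18 libraries, with p adjusted by Benjamini-Hochberg over 14862 genes and a threshold of 0.05. All 76 genes passed the filter on low counts. Each log2 change is given ± SE, with n = 2 libraries per group. CPM says nothing of the number of cells, and fewer cells of a type cannot be told apart from less RNA per cell in these bulk libraries.

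Library totals ran from 17257914 to 50235192 counts. Cxcr4 was at 37.2 and 409 CPM in the sorted libraries labelled CXCR4 knockout, against 943 and 922 CPM in sorted wild type. Replicate 2 therefore goes against its label in part. The cultures labelled CXCR4-/- held 114 to 137 CPM of Cxcr4, against 169 to 237 CPM in the other cultures without IL-7, with or without CXCL12. Cultures with IL-7 alone were as low, at 113 and 112 CPM, so Cxcr4 counts over the whole gene do not check the label of the CXCR4-/- cultures. All 12 B-lineage markers, Pax5 among them, were detected in every library, the 7 T cell markers summed to 73.6 to 184 CPM and the 6 erythroid markers to 0.195 to 26.1 CPM. Replicate 1 of the CXCR4-/- cultures without IL-7 stood apart from the rest. Its 76 genes summed to 10335 CPM, against 4549 CPM in replicate 2, and 73 of them were higher in replicate 1, with a median log2 difference of 1.14 where that over all genes tested was 0. Cytosolic ribosomal protein genes summed to 72059 CPM in it and to 24938 CPM in replicate 2. At the other end, the replicates without IL-7 and those without IL-7 with CXCL12 differed little beyond sampling noise, with a mean chi-square per gene of 1.48 and 1.34 where noise alone gives about 1, against 264.5 in the pair that stood apart. With each of these close pairs summed to 1 library, an alternative also chosen after the data were seen, no member was called on loss of IL-7 or for CXCL12 without IL-7, and 14 were lower for CXCL12 replacing IL-7. The library that stood apart enters the spread that all comparisons share, so the counts of called members are also given from a fit to the 17 other libraries, an alternative chosen after the data were seen, except where a comparison uses that library's group. The library left out was the one with the highest sum of the 76 genes, so the choice rests on the members' own values. In that fit the share of all genes is therefore not an even background, and the members' counts are a description.

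In cultures of cells not labelled as mutant the summed transcripts of the 76 genes differed by medium. They came to 2157 and 2177 CPM without IL-7 with CXCL12, to 2544 and 2559 CPM when IL-7 was withdrawn, and to 3146 and 3135 CPM when it was present. With the ERK inhibitor they summed to 3023 and 3016 CPM, against 3717 and 3652 CPM with IL-7 and CXCL12. The CXCR4-/- cultures held 4000.1 and 3506 CPM with CXCL12, against 10335 and 4549 CPM without factors. Sorted cells held 2713 and 2590.1 CPM in the libraries labelled CXCR4 knockout, against 2085 and 2206 CPM in wild type. Large-subunit transcripts were 2.28 to 2.53 times the small-subunit sum in the 18 libraries, so both subunits moved nearly in proportion.

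**Figure D1:**
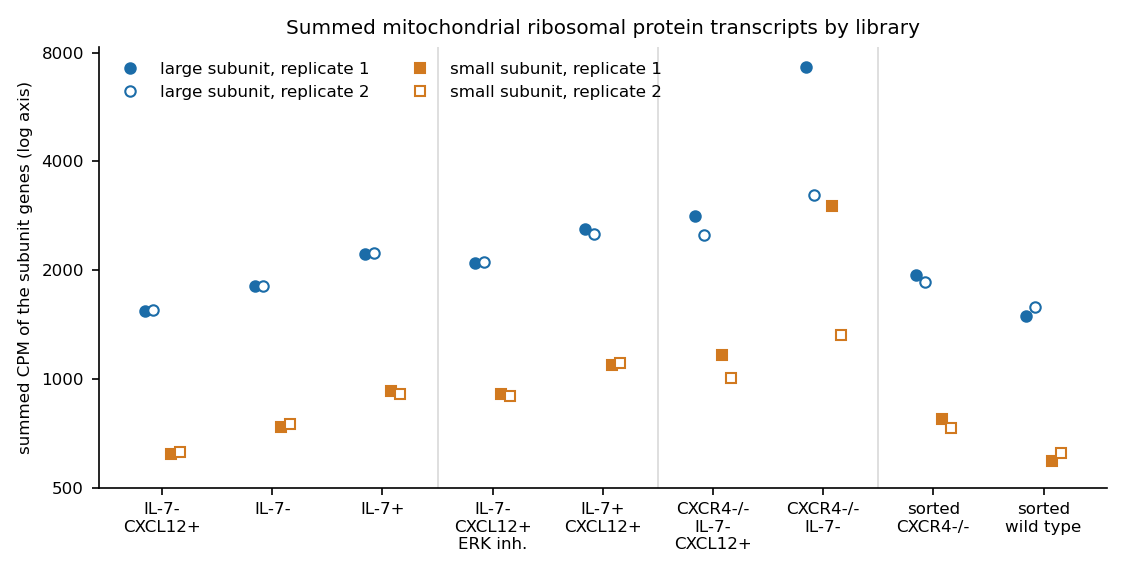
Summed CPM (log axis) of the 49 large-subunit genes (circles) and the 26 small-subunit genes (squares) in each of 18 libraries, filled for replicate 1 and open for replicate 2, with lines between the sets of cultures and the sorted cells. Replicates lie close together except in the CXCR4-/- cultures. Without factors, replicate 1 reached 7318 CPM for the large subunit against 3223 CPM in replicate 2, and with CXCL12 it reached 2831 CPM against 2496 CPM.

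The genes were compared between cultures without IL-7 and cultures with it. They were nearly uniformly lower without IL-7. The log2 change was negative for 75 of the 76 genes, with a median of -0.28 where that of all genes tested was 0.05, and in 72 of the 76 both libraries without IL-7 lay below both with IL-7. That separation held for 34.5% of all genes tested. In the 18-library fit 6 genes were called lower, a count near the 6.23% of all genes called lower. The 17-library fit called 54 of the 76 lower, the 6 among them, against 18.2% of all genes. Leaving out replicate 2 without IL-7 gave 0 lower calls in the all-group fit, and leaving out any of the other 3 libraries compared gave 1. None was called higher in edgeR's fits, 0 had an unadjusted p under 0.05 in that direction, and DESeq2 called 0 as well, where 5.6% of all genes were called higher.

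The calls held 4 small-subunit and 2 large-subunit genes. Mrps18b, a small-subunit protein specific to mitochondria, was at 11.7 and 10.1 CPM without IL-7, against 16.9 and 18.0 CPM with IL-7 (log2 change -0.68 ± 0.13, adjusted p = 0.0062 in edgeR). Mrps27, a pentatricopeptide repeat protein of the small subunit, was at 34.0 and 34.9 CPM without IL-7, against 50.7 and 49.3 CPM with it (-0.54 ± 0.11, adjusted p = 0.008 in edgeR). Mrpl19, a large-subunit protein with a bacterial homolog, was at 49.4 and 46.2 CPM, against 67.7 and 68.0 CPM (-0.51 ± 0.15, adjusted p = 0.045 in edgeR). In each of the 3 genes the groups did not overlap. Mrps5 (-0.45 ± 0.10) and Mrps2 (-0.35 ± 0.09), homologs of proteins at the bacterial decoding subunit, and Mrpl3 (-0.34 ± 0.10), a homolog of a core protein of the bacterial large subunit, fell as well. The most negative change belonged to Mrpl12, the stalk protein of the large subunit, which was at 56.5 and 55.5 CPM without IL-7, against 90.7 and 96.0 CPM with it. Its call depended on the libraries in the fit (-0.74 ± 0.33, adjusted p = 0.19 with 18 libraries, -0.76 ± 0.08, adjusted p = 3e-06 with 17, both in edgeR). Mrpl49, at 58.1 and 57.7 CPM against 55.5 and 54.5 CPM, was the exception in sign. These last 2 genes were picked after their values were seen.

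**Figure D2:**
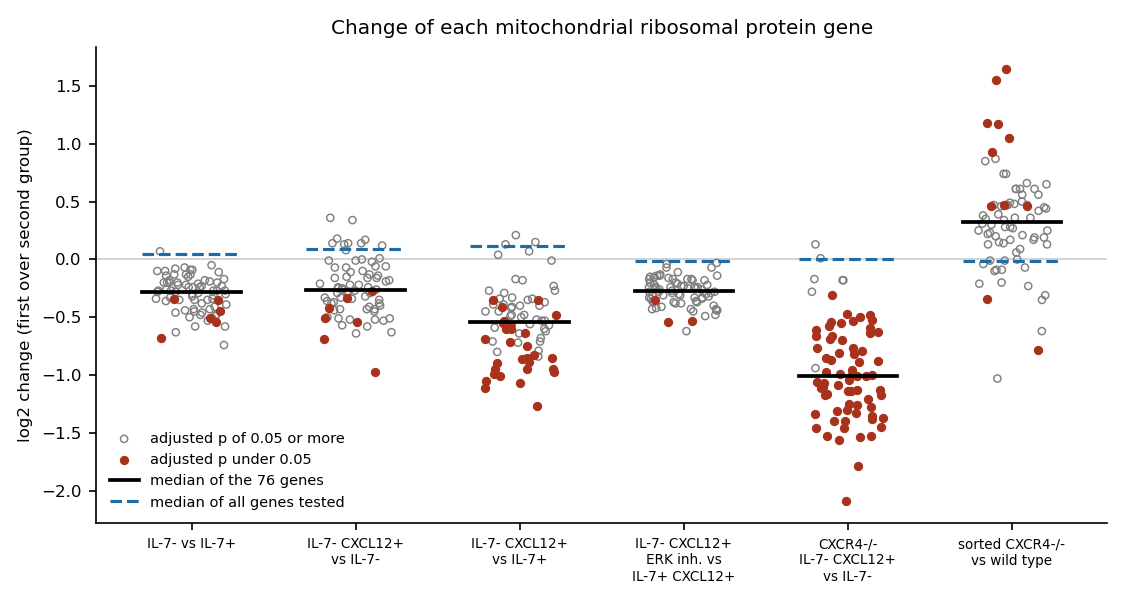
Log2 change of each of the 76 genes (points) in 6 comparisons, the first-named group over the second. Filled points had an adjusted p under 0.05 in the 18-library fit, black bars are the median of the 76 genes and dashed blue bars that of all genes tested. The medians of the 76 lay at -0.28, -0.26, -0.55, -0.27, -1.01 and 0.32 from left to right.

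CXCL12 was compared with no added factor in the absence of IL-7. Most of the genes were lower again with CXCL12. The median log2 change was -0.26, against 0.09 over all genes tested, 65 of the 76 changes were negative, and 59 genes were lower with CXCL12 without overlap of the libraries (35.8% of all genes tested). The 18-library fit called 7 lower, against 13.2% of all genes, a share below the background, and the 17-library fit called 54, the 7 among them, against 28.4%. Without any 1 of the 4 libraries compared, 2 were called lower. In edgeR 0 were called higher, 0 had an unadjusted p under 0.05 there, and DESeq2 called 0, where 17.3% of all genes were called higher. Mrpl18, homolog of a bacterial protein that holds 5S ribosomal RNA, was at 45.1 and 47.1 CPM with CXCL12, against 74.7 and 74.2 CPM without it (log2 change -0.69 ± 0.19, adjusted p = 0.014 in edgeR). Mrps5 was at 16.1 and 14.5 CPM with CXCL12, against 23 and 21.6 CPM (-0.54 ± 0.11, adjusted p = 0.0023 in edgeR). Mrps27 reached 23.1 and 25.4 CPM, against 34.0 and 34.9 CPM (-0.51 ± 0.11, adjusted p = 0.0046 in edgeR). The groups were apart in all 3 genes. Mrps31 (-0.42 ± 0.14), Mrpl50 (-0.33 ± 0.12) and Mrpl9 (-0.27 ± 0.08) fell too, as did Mrps36 (-0.97 ± 0.32), which stood at 0.71 and 0.28 CPM with CXCL12, against 1.10 and 1.07 CPM. Mrps18b, called lower on loss of IL-7, had 12.0 and 12.1 CPM with CXCL12, against 11.7 and 10.1 CPM without it (0.14 ± 0.13, adjusted p = 0.46 in edgeR).

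Setting CXCL12 without IL-7 against IL-7 alone spans both steps, with which it shares its libraries. The median log2 change of the 76 genes was -0.55, against 0.12 over all genes tested, and 71 changes were negative. The all-gene median was between 0 and 0.13 under the other scalings tried, and the median of the 76 genes stayed negative under each. Lower calls numbered 29, against 21.5% of all genes, with 0 higher (0 at an unadjusted p under 0.05 and 0 in DESeq2) where 29.8% of all genes were. The 17-library fit called 70 lower, the 29 among them, against 34.2%. Without replicate 2 of the cultures with CXCL12 16 were called lower, and without any of the other 3 libraries compared 17. In 57 of the 76 genes the libraries fell in the full order, CXCL12 without IL-7 below no IL-7 below IL-7, without overlap, as they did for 21.7% of all genes tested. Mrpl12 was at 37.4 and 40.1 CPM, against 90.7 and 96.0 CPM with IL-7 (log2 change -1.27 ± 0.33, adjusted p = 0.0071 in edgeR). Mrpl42, a large-subunit protein specific to mitochondria, was at 20.8 and 19.5 CPM, against 44.1 and 42.9 CPM (-1.11 ± 0.27, adjusted p = 0.0042 in edgeR). Mrps27 was at 23.1 and 25.4 CPM, against 50.7 and 49.3 CPM (-1.05 ± 0.11, adjusted p = 1.1e-05 in edgeR). Each of the 3 was less than 0.5 times its level under IL-7 in the fitted fold (0.415, 0.464 and 0.484).

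By class, 11 of 29 large-subunit genes with a bacterial homolog fell, among them Mrpl15 (-1.01 ± 0.26), Mrpl18 (-0.97 ± 0.19), Mrpl19 (-0.89 ± 0.15), Mrpl3 (-0.57 ± 0.10) and Mrpl9 (-0.35 ± 0.08). Of the 20 large-subunit genes specific to mitochondria 6 fell. Beside Mrpl42 they were Mrps18a (-0.75 ± 0.29), Mrpl50 (-0.71 ± 0.12), Mrpl45 (-0.55 ± 0.14), whose product lies near the exit of the nascent chain at the inner membrane, Mrpl44 (-0.48 ± 0.11), a protein with a ribonuclease III fold, and Mrpl39 (-0.35 ± 0.12). Among 16 small-subunit genes with a bacterial homolog 4 fell, Mrps5 (-0.99 ± 0.11), Mrps15 (-0.95 ± 0.33), Mrps28 (-0.90 ± 0.30) and Mrps2 (-0.41 ± 0.09). Of the 10 small-subunit genes specific to mitochondria 7 fell, with a median of -0.75. They included Mrps22 (-0.95 ± 0.16), Mrps33 (-0.95 ± 0.25), Mrps34 (-0.85 ± 0.32), Mrps31 (-0.64 ± 0.14) and Mrps18b (-0.53 ± 0.13). The 17-library fit called 27 of 29, 17 of 20, 15 of 16 and 10 of 10 lower in these 4 classes in the order given. Among all genes 21.5% and 34.2% were lower in the 2 fits, and a difference between the classes was not tested. The 5 changes above 0 were those of Mrpl53 (0.21 ± 0.31), Mrps6 (0.15 ± 0.28), Mrpl43 (0.13 ± 0.25), Mrpl49 (0.07 ± 0.18) and Mrpl24 (0.04 ± 0.29), none of which passed the test in either fit. The median log2 change was -0.50 in the 43 genes with any of the 4 motifs in a promoter and -0.58 in the 24 without one, and it was -0.64 in the 5 genes with an E-box and -0.53 in the other 62. It was -0.44 in the 12 genes with the nuclear respiratory factor 1 motif and -0.54 in the others, -0.53 and -0.54 for the ETS motif, and -0.48 and -0.54 for the YY1 motif. These differences were not tested.

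**Figure D3:**
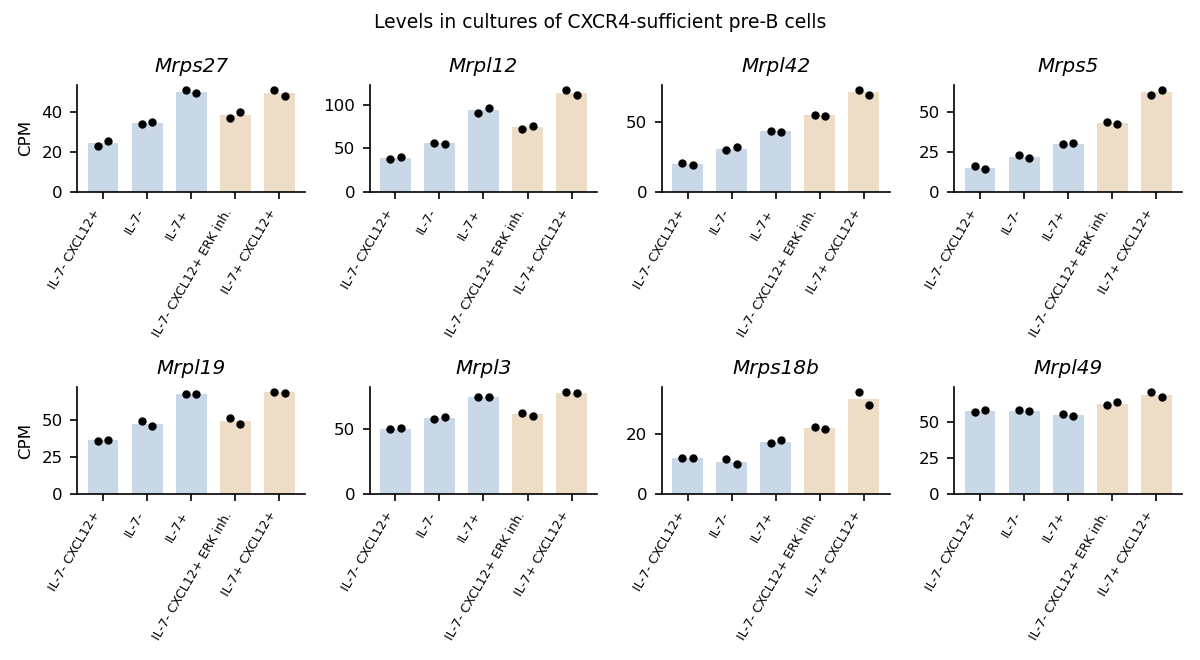
CPM of 8 of the genes in cultures of cells not labelled as mutant, with 1 point per library and bars at the group mean (n = 2). The blue groups and the tan groups are sets of libraries that stood apart, so bars are to be compared within a colour. Mrpl49 in the last panel stayed between 54.5 and 58.3 CPM in the 6 libraries of the blue groups.

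Marker genes of other cells moved with these comparisons. The summed level of 14 stromal markers was 4714 and 4604 CPM without IL-7 with CXCL12, 1986 and 1953 CPM in medium lacking both, and 750.0 and 1313 CPM with IL-7. Of the 14, 12 were higher without overlap in each of the 3 comparisons, 1 was lower on loss of IL-7 and when CXCL12 replaced it, and Lum was at 0 in 14 of the 18 libraries. The 18 myeloid markers summed to 801 and 808 CPM without IL-7 with CXCL12, to 324 and 322 CPM in medium lacking both, and to 181 and 236 CPM with IL-7, with 17 or 18 of the 18 higher without overlap in each comparison. Their part in the lower member levels was not tested. The 12 B-lineage markers summed to 7552 and 7417 CPM without IL-7 with CXCL12, to 6870 and 6766 CPM in medium lacking both, and to 6029 and 5677 CPM with IL-7, with 9 of the 12 higher and 3 lower without overlap in each comparison.

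Replacing IL-7 by the ERK inhibitor in the presence of CXCL12 was another comparison in which IL-7 was absent on one side, and it shared no library with the loss of IL-7. Here the change was negative for all 76 genes, with a median of -0.27, against -0.01 over all genes tested. In 72 genes both libraries with the inhibitor lay below both with IL-7 and CXCL12, as in 36.1% of all genes tested. The 18-library fit called 3 lower, near the background of 4.54% of all genes, and the 17-library fit 53, the 3 among them, against 18.6%. Without replicate 1 or 2 with the inhibitor 1 and 0 were called lower, and without replicate 1 or 2 with IL-7 and CXCL12 1 and 2. No gene was called higher in edgeR, 0 had an unadjusted p under 0.05 in that direction and DESeq2 called 0, where 6.5% of all genes were called higher. Mrps5 was at 43.7 and 42.6 CPM with the inhibitor, against 61.0 and 64.4 CPM with IL-7 and CXCL12 (log2 change -0.54 ± 0.10, adjusted p = 0.0048 in edgeR). Mrps18b was at 22.3 and 21.8 CPM, against 34.0 and 29.6 CPM (-0.53 ± 0.13, adjusted p = 0.021 in edgeR). Mrpl3 was at 62.4 and 60.3 CPM, against 78.6 and 77.5 CPM (-0.35 ± 0.10, adjusted p = 0.049 in edgeR). All 3 were also called on loss of IL-7. In the 17-library fit the 2 comparisons shared 47 genes called lower, 87% of the 54 called on loss of IL-7 and 88.7% of the 53 called here. Over all genes tested the shared calls were 72.2% and 70.8% of the genes called lower. These shares stand on unlike bases, as the 2 comparisons called 71.1% and 69.7% of the members lower, against 18.2% and 18.6% of all genes. Lists that cover most members share many of them by their size alone. Both calls also use the same spread of each gene, so the overlap is a description. IL-7 and the inhibitor change together in this comparison, so their parts cannot be told apart. The stromal markers summed to 194 and 203 CPM with the inhibitor and 148 and 146 CPM with IL-7 and CXCL12, 13 of 14 higher without overlap, and the myeloid markers to 3541 and 3615 CPM, against 2057 and 1899 CPM, with 7 of 18 higher and 7 lower without overlap. Their part was not tested.

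In sorted small pre-B cells the genes were mostly higher in the libraries labelled CXCR4 knockout than in wild type. The log2 change was positive for 59 of the 76, with a median of 0.32 where that of all genes tested was -0.01. In 54 genes both knockout libraries lay above both wild-type ones, as in 33.1% of all genes tested. The 18-library fit called 9 higher and 2 lower, against 16.6% and 17.6% of all genes, shares below the background. The 17-library fit called 48 higher and 6 lower, the 11 among them, against 25.3% and 27.2%. Mrpl52, a large-subunit protein specific to mitochondria, was at 30.3 and 31.8 CPM in the knockout libraries, against 7.83 and 11.9 CPM in wild type (log2 change 1.65 ± 0.52, adjusted p = 0.027 in edgeR). Mrpl34, a small protein of the large subunit with a bacterial homolog, was at 50.3 and 40.5 CPM, against 12.5 and 18.6 CPM (1.55 ± 0.35, adjusted p = 0.0047 in edgeR). Mrps12, homolog of the bacterial protein that monitors decoding accuracy, was at 26.1 and 23.7 CPM, against 8.95 and 13.1 CPM (1.18 ± 0.38, adjusted p = 0.029 in edgeR). Wild-type replicate 1 was the lowest library in all 3 genes, and the groups did not overlap.

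Mrpl54 (1.17 ± 0.39), Mrpl27 (1.05 ± 0.31), Mrps34 (0.93 ± 0.33), Mrps22 (0.47 ± 0.16), Mrps27 (0.46 ± 0.11) and Mrpl45 (0.46 ± 0.15) rose as well. Mrps5 was at 16.1 and 19.4 CPM in the knockout libraries, against 21.4 and 23.5 CPM in wild type (-0.34 ± 0.11, adjusted p = 0.026 in edgeR), and fell. Mrps33, a small-subunit protein specific to mitochondria, fell too, at 3.51 and 3.15 CPM against 5.26 and 6.19 CPM (-0.78 ± 0.25, adjusted p = 0.032 in edgeR). Without wild-type replicate 1 the 18-library fit lost the 9 higher calls, and without wild-type replicate 2, knockout replicate 1 or knockout replicate 2 it made 3, 1 and 3. The 2 lower calls became 1, 0, 0 and 1 without the same 4 libraries in the same order. The median of the 76 genes stayed between 0.24 and 0.38. The myeloid markers summed to 7782 and 1327 CPM in the knockout libraries and 6260 and 6229 CPM in wild type, 1 of 18 higher and 1 lower without overlap. The B-lineage markers summed to 7238 and 8760 CPM, against 11247 and 10853 CPM, with 4 of 12 higher and 5 lower, and 5 of the 7 T cell markers were lower. Their part in the result was not tested.

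CXCL12 was also added to cultures labelled CXCR4-/- without IL-7, which sets the chemokine against a label of lacking its receptor. Of the 76 genes 69 were called lower, with a median log2 change of -1.01 against 0 over all genes tested, of which 21% were called lower. In edgeR 0 were called higher, 0 had an unadjusted p under 0.05 there, and DESeq2 called 0, where 12.8% of all genes were called higher. The cultures without CXCL12 hold the library that stood apart. Between the replicates with CXCL12, 71 of the 76 genes were higher in replicate 1, with a median log2 difference of 0.17, against 0 over all genes tested. Mrpl52 was at 21.8 and 16.7 CPM with CXCL12, against 135.7 and 28.0 CPM without it (-2.09 ± 0.51, adjusted p = 0.022 in edgeR). Mrpl33, with a bacterial homolog, was at 49.9 and 39.3 CPM, against 250.1 and 57.3 CPM (-1.79 ± 0.45, adjusted p = 0.022 in edgeR). Mrps16, a small-subunit protein with a bacterial homolog, was at 34.3 and 33.7 CPM, against 157.9 and 42.7 CPM (-1.56 ± 0.39, adjusted p = 0.022 in edgeR). In each the distance between the 2 libraries without CXCL12 exceeded that from replicate 2 to the CXCL12 libraries. With 1 of the compared libraries left out, whichever it was, the median of the 76 genes was between -1.48 and -0.27. Without replicate 1 of the cultures without factors the median was -0.27 and 12 genes were called lower. Without replicate 1 or replicate 2 with CXCL12 0 were called lower, and with these 4 libraries fitted alone 0 were called in either direction. Mrps5, at 38.6 and 40.9 CPM against 39.0 and 40.2 CPM (0.01 ± 0.10), and Mrps2, at 66.3 and 60.8 CPM against 54.2 and 61.9 CPM (0.13 ± 0.09), were the 2 genes with a change above 0. Cytosolic ribosomal protein genes moved in the same comparison, 73 of 82 called lower with a median of -1.32, and their part was not tested. The B-lineage markers summed to 5499 and 5129 CPM with CXCL12, against 9836 and 5969 CPM without it, with 2 of 12 higher and 7 lower without overlap, and their part was not tested either.

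The difference of the 2 CXCL12 effects, CXCR4-/- minus not mutant, had a median of -0.73 over the 76 genes. In it 8 were called (1 higher and 7 lower), against 12.1% and 13.1% of all genes, shares below the background. The CXCR4-/- cultures are titled small pre-B and most of the others pre-B, so labelled cell stage and genotype cannot be told apart. Without replicate 1 of the CXCR4-/- cultures without factors the median was 0.10 and 16 were called, and without replicate 2 72 were called. Without replicate 1 without IL-7 of the cells not labelled as mutant, or without replicate 2 with CXCL12 of the CXCR4-/- cells, 0 were called, and without any of the other 4 libraries compared 1 to 4. Mrps5 had a difference of 0.55 ± 0.15 (adjusted p = 0.019 in edgeR). Its 4 CXCR4-/- libraries lay within 38.6 to 40.9 CPM, and in the other cultures it fell with CXCL12. The difference was between 0.48 and 0.65 under the alternatives, with adjusted p of 0.001 to 0.14 in edgeR and DESeq2.

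**Figure D4:**
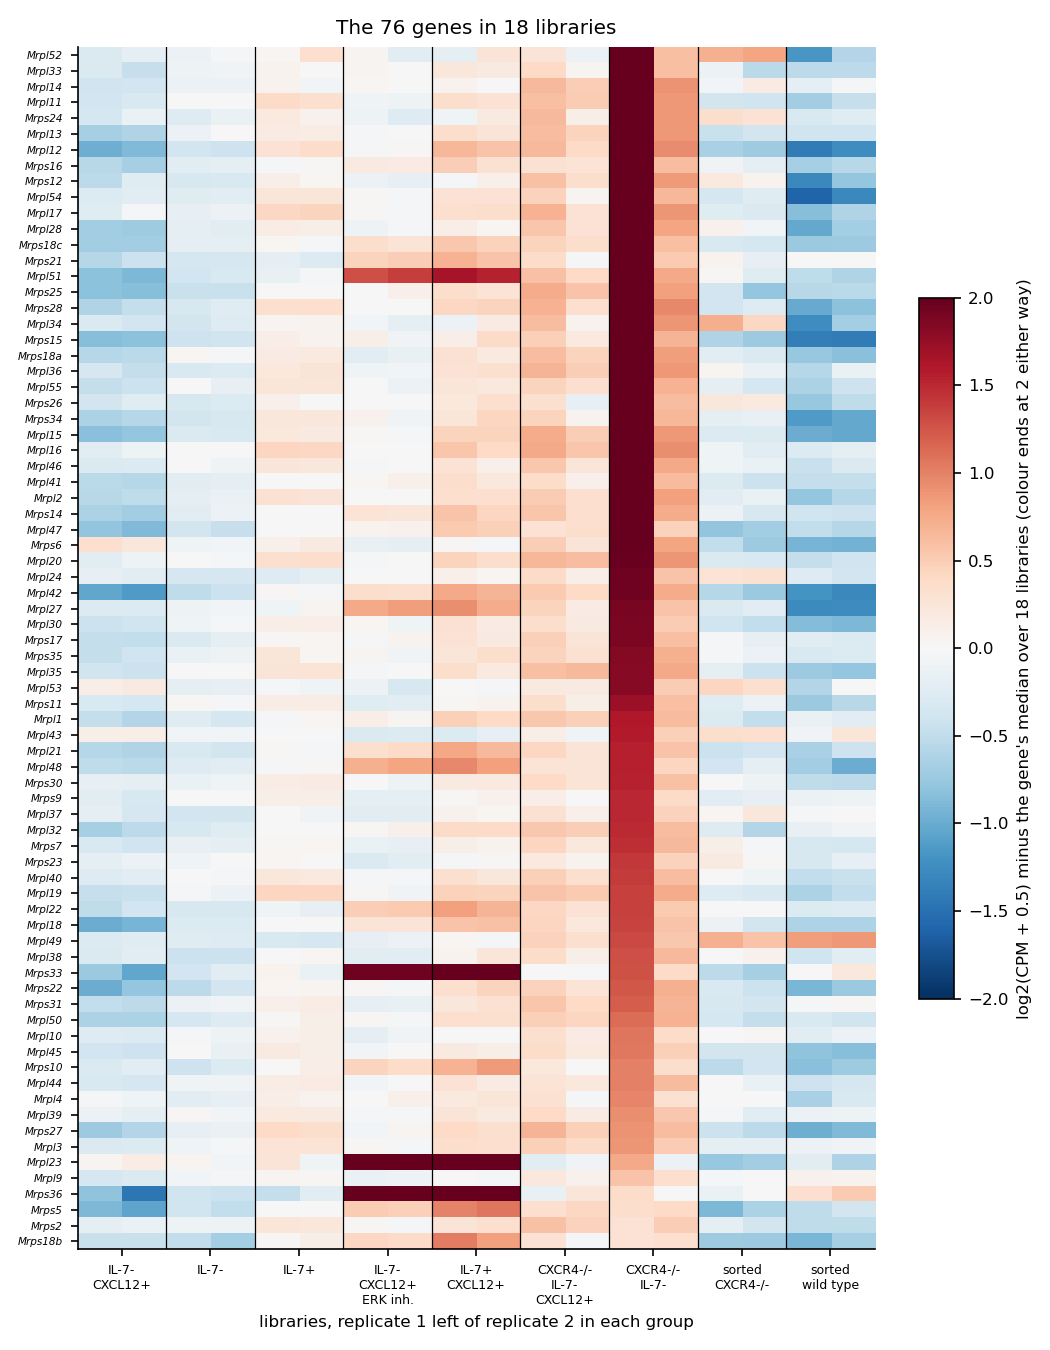
Log2(CPM + 0.5) of each of the 76 genes (rows) in the 18 libraries (columns, replicate 1 left of replicate 2) minus the gene's own median over the libraries, with rows ordered by the library that stood apart and colours ending at 2 either way. That library, replicate 1 of the CXCR4-/- cultures without IL-7, is the dark column, and Mrpl23, Mrps33 and Mrps36 are the rows with the widest gap to the other libraries among those that were high in the 4 libraries with IL-7 and CXCL12 or with the ERK inhibitor.

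The genes followed each other over the libraries. Pearson's r of a gene's log2(CPM + 0.5) with the mean of the other genes had a median of 0.94 over 18 libraries, and 65 of the 76 genes reached 0.8. It lay under 0.5 for Mrpl23 (0.18), Mrps36 (0.18), Mrpl49 (0.39) and Mrps33 (0.45). Without the library that stood apart and the 4 libraries with IL-7 and CXCL12 or the ERK inhibitor the median was 0.94 and 62 reached 0.8. The libraries share groups, depth and scaling, so these values are a description. No such r is given here for other genes, so the values do not show a trait particular to this set.

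A named pseudogene, which can take or lend reads, exists for 6 of the genes, and their counts are uncertain. They are Mrpl23, Mrpl27, Mrpl48, Mrpl51, Mrps33 and Mrps36. In the 4 libraries with IL-7 and CXCL12 or with the ERK inhibitor they summed to 187 to 229 CPM, against 42.7 to 106 CPM in 13 other libraries and 272 CPM in the library that stood apart. Mrpl23 was at 21.8 to 31.0 CPM in the 4 libraries, against 0.151 to 1.36 CPM in the other 14. Mrps36 was at 15.7 to 18.2 CPM, against 0.275 to 2.52 CPM, and Mrps33 at 21.6 to 25.5 CPM, against 2.31 to 13.4 CPM. Only Mrps5 and Mrps18b of the 70 genes without a named pseudogene also had the 4 libraries above the other 14. Cytosolic ribosomal protein genes, many of which have pseudogenes, summed to 65049 to 80858 CPM in the 4 libraries. They summed to 9375 to 24938 CPM in the 13 others and to 72059 CPM in the library that stood apart. Comparisons of these groups with the other cultures therefore cannot be told apart from the difference between the sets of libraries.

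**Figure D5:**
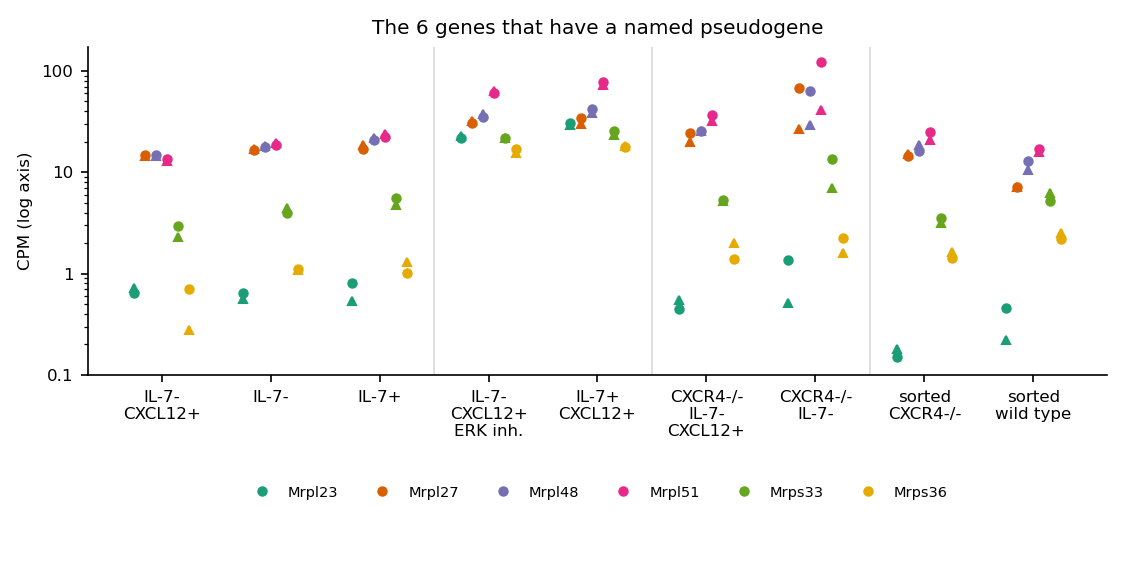
CPM (log axis) of the 6 genes that have a named pseudogene, in each library, with circles for replicate 1 and triangles for replicate 2. Mrpl23, Mrps33 and Mrps36 were higher in the 4 libraries with IL-7 and CXCL12 or the ERK inhibitor than in the other 14.

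Within that limit, adding CXCL12 in the presence of IL-7 gave 12 genes called higher and 0 lower (0 at an unadjusted p under 0.05 and 0 in DESeq2), against 15.3% and 16.5% of all genes, with a median of 0.11. The count called higher is near the background. All 6 genes with a named pseudogene were among the 12, and the median of the other 70 genes was 0.08. Mrpl23 was at 31.0 and 29.4 CPM with both factors, against 0.81 and 0.54 CPM with IL-7 (log2 change 5.47 ± 0.31). Mrps36 had a change of 3.95 ± 0.27, Mrps33 of 2.24 ± 0.24 and Mrpl51 of 1.71 ± 0.34. Mrps5 was at 61.0 and 64.4 CPM, against 30.2 and 30.7 CPM (1.04 ± 0.10, adjusted p = 1.1e-05 in edgeR), and Mrps18b at 34.0 and 29.6 CPM, against 16.9 and 18.0 CPM (0.87 ± 0.13, adjusted p = 0.00032 in edgeR). The ERK inhibitor under CXCL12 without IL-7 gave 31 called higher and 0 lower (0 at an unadjusted p under 0.05 and 0 in DESeq2), against 26.9% and 30% of all genes, with a median of 0.41. Mrps5 was at 43.7 and 42.6 CPM with the inhibitor, against 16.1 and 14.5 CPM (1.49 ± 0.11, adjusted p = 2e-07 in edgeR), and Mrpl42 at 55.4 and 54.5 CPM, against 20.8 and 19.5 CPM (1.44 ± 0.27, adjusted p = 0.00057 in edgeR). The 17-library fit gave 28 higher and 1 lower for the addition of CXCL12, against 21.2% and 30.9% of all genes, and 62 higher and 3 lower for the inhibitor, against 35.2% and 34.8%. The myeloid markers summed to 2057 and 1899 CPM with both factors, against 181 and 236 CPM with IL-7, and the stromal ones to 148 and 146 CPM, against 750.0 and 1313 CPM. With the inhibitor the myeloid sums were 3541 and 3615 CPM, against 801 and 808 CPM, and the stromal sums 194 and 203 CPM, against 4714 and 4604 CPM, and their part was not tested. With 1 of the compared libraries left out, whichever it was, 7 to 8 were higher for the addition of CXCL12 and 16 to 18 for the inhibitor.

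CXCR4-/- cultures were set against the other cultures in the same medium, again across sets of libraries. The titles of the CXCR4-/- cultures say small pre-B, and those of the others pre-B except for replicate 2 without IL-7. Labelled cell stage thus differed in part along with genotype, and their parts cannot be told apart. With CXCL12, 52 of the 76 genes were called higher and 0 lower (0 at an unadjusted p under 0.05 and 0 in DESeq2), against 27.3% and 35.7% of all genes, with a median of 0.82. The 17-library fit called 71 higher and 0 lower, against 34.2% and 39.9%. Without replicate 1 with CXCL12 of the CXCR4-/- cultures 33 were called higher, and 46 without its replicate 2. Mrps27 was at 62.0 and 53.6 CPM, against 23.1 and 25.4 CPM in cells not labelled as mutant (1.26 ± 0.11, adjusted p = 1.1e-06 in edgeR), and Mrpl42 at 62.6 and 57.6 CPM, against 20.8 and 19.5 CPM (1.57 ± 0.27, adjusted p = 0.00026 in edgeR). Without IL-7 or CXCL12, 75 were called higher and 0 lower (0 at an unadjusted p under 0.05 and 0 in DESeq2), against 31% and 34.6%, with a median of 1.51, which was 0.78 without the library that stood apart. Mrpl12 was at 421.2 and 142.8 CPM there, against 56.5 and 55.5 CPM (2.33 ± 0.34). Stromal markers summed to 2.02 to 7.12 CPM in the 4 CXCR4-/- libraries and to 1953 to 4714 CPM in the 4 they were set against. The myeloid markers summed to 11.7 to 17.9 CPM and to 322 to 808 CPM in the same libraries. The part of both marker sets was not tested. The median of all genes tested was itself -0.14 and -0.13 in these 2 comparisons.

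Fits to the compared groups alone moved the counts in both directions. On loss of IL-7 they called 70 of the 76 lower, against 30.4% of all genes, and for CXCL12 without IL-7 65 lower and 3 higher, against 39.6% and 38.4%. CXCL12 replacing IL-7 gave 70 lower and 0 higher, against 40.6% and 38.4%, and the ERK inhibitor replacing IL-7 55 lower, against 21.3%. In sorted cells 38 were higher and 0 lower, against 22.7% and 19.3%. Across the sets, the ERK inhibitor under CXCL12 gave 69 higher and 3 lower, against 42.3% and 41.4%, and CXCL12 with IL-7 32 higher and 1 lower, against 30.2% and 29.5%. CXCR4-/- cultures gave 72 higher with CXCL12, against 39.4%, and 6 without it, against 4.76%. CXCL12 in CXCR4-/- cultures gave 0 in either direction, against 0% of all genes. For the difference of the CXCL12 effects 0 were called, against 6.08% higher and 3.48% lower among all genes.

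Other genes of mitochondrial gene expression, from lists chosen with earlier results of these data known, were counted in the same fits. Among all genes 6.23% were called lower on loss of IL-7 and 21.5% when CXCL12 replaced IL-7 in the 18-library fit, and 18.2% and 34.2% in the 17-library fit. Of 23 genes of mitochondrial transcription and RNA processing 7 and 12 fell in the 18-library fit, with 0 and 2 higher, and 17 and 16 in the 17-library fit, with 1 and 1 higher. Tefm, the elongation factor of mitochondrial RNA polymerase, had log2 changes of -0.90 ± 0.13 and -1.40 ± 0.14, and Lrpprc, which stabilises mitochondrial messenger RNAs, -0.43 ± 0.06 and -0.66 ± 0.06. Of 25 genes of ribosome assembly and ribosomal RNA modification 3 and 8 fell, with 0 and 2 higher, and in the 17-library fit 8 and 14, with 1 and 3 higher. Noa1, a GTPase of small-subunit assembly, had changes of -0.90 ± 0.14 and -1.32 ± 0.14. Tfb1m, the methyltransferase of the small-subunit ribosomal RNA, changed by -1.27 ± 0.11 with CXCL12 without IL-7.

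Of 27 import and folding genes 6 and 12 fell, with 0 and 2 higher, and in the 17-library fit 21 and 25, with 1 and 2 higher. Hspd1, the chaperonin HSP60, had -0.93 ± 0.07 and -1.36 ± 0.08, and Hspa9, the HSP70 that pulls proteins into the matrix, -0.77 ± 0.08 and -1.14 ± 0.08. Pam16, of the same import motor, rose by 2.91 ± 0.23 when CXCL12 replaced IL-7. Of 14 translation factors 1 and 7 fell, and 5 and 11 in the 17-library fit, with 0 higher in either. Gfm1, the mitochondrial elongation factor G, had changes of -0.36 ± 0.10 and -0.63 ± 0.10. The 7 mitochondrial ribosomal proteins that carry other names, such as Dap3, gave 0 and 1 lower, with medians of -0.36 and -0.57, and 5 and 7 lower in the 17-library fit. The 82 tested cytosolic ribosomal protein genes gave 4 lower and 1 higher on loss of IL-7, with a median of -0.28, and 43 lower and 1 higher in the 17-library fit. When CXCL12 replaced IL-7 they gave 24 lower and 3 higher, with a median of -0.66, and 65 lower and 3 higher in the 17-library fit.

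With the ERK inhibitor in place of IL-7, Hspd1 (-0.81 ± 0.07), Hspa9 (-0.53 ± 0.08), Lrpprc (-0.47 ± 0.06) and Noa1 (-0.56 ± 0.14) fell again. The counts lower were 6 of 27 for import and folding, 5 of 23 for transcription and RNA processing and 3 of 25 for assembly, against 4.54% of all genes, and 21, 20 and 10 in the 17-library fit, against 18.6%. In sorted cells, where 16.6% of all genes were called higher and 17.6% lower, the medians of the lists lay on both sides of 0. The other-named ribosomal proteins had 2 higher and 0 lower of 7 (median 0.49), import and folding 6 and 1 of 27 (median 0.11), and translation factors 1 and 2 of 14 (median 0.07). Assembly had 2 higher and 4 lower of 25 (median -0.11), transcription and RNA processing 3 and 6 of 23 (median -0.17), and the cytosolic ribosomal protein genes 11 and 11 of 82 (median -0.07). The 17-library fit gave 6 higher and 1 lower, 10 and 6, 2 and 4, 6 and 7, 5 and 9, and 28 and 27 in the same order, against 25.3% and 27.2% of all genes.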

How the data were processed

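RNA-seq counts per gene were used as deposited, whole numbers with no normalization by the authors that the table shows. The submitters' processing notes name STAR, BWA, Picard, featureCounts, bedtools and MACS2 and the build mm9; their roles and versions are not given in the sources used here. All 18 count columns match a sample's labels. Peak lists of 8 ATAC-seq libraries were not used here.

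Counts were fitted with edgeR 4.0.16 in R 4.3.3 (TMM scaling, filterByExpr, robust quasi-likelihood test, Benjamini-Hochberg adjusted p under 0.05 over 14862 genes), with 1 mean per group over all 18 libraries, because 2 libraries per group leave little to estimate a spread. The SE is the log2 change over the square root of F. The fit was tested on simulated data. Totals of 17257914 to 50235192 counts set the counting precision. The alternatives were DESeq2 1.42.0, other scalings and filters, the groups compared alone, the replicate number as a block, libraries left out, and near-identical pairs summed.

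Members and gene lists were chosen with earlier results of these data known. Values in every library are given for the called genes with the 3 largest rises and 3 largest falls among genes whose log2 CPM averaged 3 or more. Up to 6 called genes per subunit class and 3 per other list are named by smallest p. Genes named without a call, and the values in every library of other genes, were chosen after their values were seen. Promoters are from RefSeq's GRCm38.p6 table, in which all 76 genes matched a gene and 67 a promoter; none of its coordinates were joined to the mm9 files. Figures used Python 3.11.15 and matplotlib 3.10.9.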

Additional observations from a re-analysis of the deposited data

Results flagged for a closer look

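The CXCL12 effect was called different between CXCR4-/- cultures and cultures not labelled as mutant for 8 of the 76 genes, by a test of the difference itself in edgeR. This share is below the background, as 25.2% of all genes were called. Between 0 and 72 genes were called when 1 library was left out. The log2 difference was -1.54 for Mrps6, -1.48 for Mrpl53 and -1.46 for Mrps26. In the CXCR4-/- cultures without factors these genes were at 46.6 and 19.7 CPM, at 69.5 and 27.8 CPM and at 199.6 and 70.1 CPM, so replicate 1 was far above replicate 2 in each. The log2 difference was 0.55 for Mrps5, whose libraries in that group were close, at 39.0 and 40.2 CPM.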

How the results depend on the processing

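The median change of the 76 genes kept its direction in all 10 comparisons between groups under the alternatives run. The median of the difference between the 2 CXCL12 effects did not: it was -0.73, and 0.10 without replicate 1 of the CXCR4-/- cultures without factors. Counts of calls moved widely, and the cause was not tested. With only the compared groups fitted, lower calls were 70 on loss of IL-7, 65 (and 3 higher) for CXCL12 without IL-7, 70 for CXCL12 replacing IL-7, 55 for the ERK inhibitor replacing IL-7, and 0 for CXCL12 in CXCR4-/- cultures. In sorted cells that fit gave 38 higher and 0 lower, for CXCL12 with IL-7 32 higher and 1 lower, for the inhibitor under CXCL12 69 higher and 3 lower, for CXCR4-/- without IL-7 6 higher, and 0 for the difference of the CXCL12 effects. The 17-library fit gave 54, 54, 70 and 53 lower in the first 4 comparisons, 48 higher and 6 lower in sorted cells, 28 higher and 1 lower for CXCL12 with IL-7, and 62 higher and 3 lower for the inhibitor under CXCL12. With near-identical pairs summed, lower calls were 0, 0 and 14 in the first 3 comparisons, 15 were higher for the inhibitor under CXCL12, 30 for CXCR4-/- with CXCL12, and 0 differed between the CXCL12 effects. Without the filter on low counts, 3 were lower on loss of IL-7, 5 higher in sorted cells and 5 differed between the effects. Without the 4 libraries with IL-7 and CXCL12 or the inhibitor, these were 3, 3 and 2, with 1 lower in sorted cells and 0 lower for CXCL12 in CXCR4-/- cultures. Scaling without ribosomal protein genes and pseudogenes gave 12 lower for CXCL12 without IL-7 and 5 for the difference. DESeq2 gave 4 lower in sorted cells and 16 for the difference.

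Leaving out 1 library at a time, which leaves a lone sample assumed to vary like the other groups, gave 0 to 1 lower on loss of IL-7, 2 to 2 for CXCL12 without IL-7, 16 to 17 for CXCL12 replacing IL-7, 0 to 2 for the inhibitor replacing IL-7, and 0 to 72 lower and 0 to 1 higher for CXCL12 in CXCR4-/- cultures. It gave 0 to 3 higher and 0 to 1 lower in sorted cells, 7 to 8 higher for CXCL12 with IL-7, 16 to 18 for the inhibitor under CXCL12, 74 to 76 for CXCR4-/- without IL-7, 33 to 46 with CXCL12, and 0 to 72 for the difference. Of the log2 changes of named genes under the alternatives, 1835 stayed on their side of the threshold and 455 lost the call. With the replicate number as a block, 5, 6, 32, 2 and 69 genes were lower in the first 5 comparisons, 9 were higher and 2 lower in sorted cells, and 8 differed between the CXCL12 effects; deviations of same-numbered libraries correlated at -0.17 to 0.44, the highest in the CXCR4-/- cultures, and with 2 pairs a comparison these values do not show whether the numbers pair the samples.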
